A study of Mus musculus with 12 samples.

Results

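The genes described here are 45 genes of DNA replication and mitosis, 24 that serve replication and 21 that serve mitosis, taken by symbol from the 13283 genes of the deposited expression table, which held every one of them. They were measured by RNA sequencing in mouse cytotoxic T lymphocytes (CTL), the effector CD8 T cells that grow out of activated T cells. WT CTL came from GzmB cre+ mice, and FOXO1-GFP KO CTL came from FOXO1-GFP fl/fl mice that carried the same Cre, so both genotypes carried a Cre recombinase driven by the granzyme B promoter. Female mice of 11 to 27 weeks were used. All cells were activated for 48 h, then grown with 20 ng/mL IL-2 plus 2 ng/mL IL-12. On day 6 they were plated in these cytokines for 24 h, either with vehicle or with the p110δ inhibitor IC87114 at 10 µM (PI3Kdi); p110δ is the PI3K catalytic subunit typical of leukocytes. The 4 groups, WT, WT+PI3Kdi, FOXO1-GFP KO and FOXO1-GFP KO+PI3Kdi, held 3 biological replicates each. KO cells were sorted as live CD8+ GFP- cells and WT cells as live CD8+ cells, so genotype and sort gate cannot be told apart, and Cre acts only in cells that have switched on granzyme B.

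Cells copy their DNA in S phase and divide it in mitosis. In G1, CDC6 and CDT1 load the MCM helicase onto origins. E2F transcription factors and cyclin E then drive entry into S phase, where CDC45 and the GINS complex activate the helicase, PCNA clamps the polymerases to DNA, and ribonucleotide reductase, thymidylate synthase and thymidine kinase supply nucleotides. Mitotic genes peak later, in G2 and M: cyclins A and B with CDK1 start mitosis, Aurora and Polo kinases and kinesins build the spindle, BUB kinases hold the checkpoint, and CDC20 and UBE2C work with the anaphase-promoting complex that ends it. CTL in IL-2 divide quickly, and FOXO1 is a forkhead factor that PI3K signalling keeps out of the nucleus through AKT. The inhibitor, with and without Foxo1, therefore asks whether sustained p110δ signalling sets the mRNA level of this machinery in dividing CTL. In bulk RNA, fewer cells in a cell cycle phase and less RNA per cell cannot be told apart.

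The promoters of the 2 classes are shown because replication genes are classically driven through E2F sites and mitotic genes through CHR elements and CCAAT boxes. Windows from 250 bases before to 50 after the RefSeq start (GRCm38.p6) were at hand for 20 replication and 16 mitotic genes, 9623 genes of the table in all; Mcm4, Gins2, Pole, Ccne2, Ccna2, Cdc25c, Aurkb, Kif20a and Tpx2 were not matched. An E2F site (TTTCCCGC, TTTGGCGC, TTTCGCGC or TTTGCCGC, either strand) lay in the windows of 10 of 20 replication genes, 1 of 16 mitotic genes and 4.89% of the table's genes. A CHR element (TTTGAA or TTCGAA, either strand) was held by 6 of 20 replication and 13 of 16 mitotic genes, beside 16.8% of the table's genes. The CCAAT box (either strand) was found in 15 of 20 and 15 of 16 genes, beside 43.2%. The forkhead letters GTAAACA (either strand), which a FOXO protein can bind, were in the windows of 2 of 20 replication genes (Mcm7 and Cdc45), 0 of 16 mitotic genes and 3.04% of the table's genes. Of all RefSeq promoter windows, 2.27% held the E2F letters, 19.2% the CHR, 37.4% the CCAAT and 3.65% the forkhead letters. These matches describe the windows and were not set against expression.

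The printed windows hold 200 bases, of which the last 50 follow the start, 5′ to 3′ on the strand of the gene, with E2F, CHR and CCAAT letters in capitals. Mcm5 and Cdc6 are shown from the replication genes, and Cdk1, Plk1 and Ccnb1 from the mitotic genes. Mcm5 and Cdc6 each hold an E2F site, which only 10 of 20 replication genes did. The replication gene E2f1 was also picked for printing but is left out, and its window held no E2F, CHR or CCAAT letters. Cdk1 holds all 3 motifs.
Mcm5 (chr8:75109359-75109558, plus strand): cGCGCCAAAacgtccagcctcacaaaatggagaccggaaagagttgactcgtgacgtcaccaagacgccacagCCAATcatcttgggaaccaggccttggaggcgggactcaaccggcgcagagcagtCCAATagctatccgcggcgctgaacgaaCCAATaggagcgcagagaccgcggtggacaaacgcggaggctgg
Cdc6 (chr11:98908001-98908200, plus strand): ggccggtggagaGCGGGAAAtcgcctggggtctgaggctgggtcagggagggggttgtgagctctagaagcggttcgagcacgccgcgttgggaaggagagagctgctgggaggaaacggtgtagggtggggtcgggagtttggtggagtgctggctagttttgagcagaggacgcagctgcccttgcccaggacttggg
Cdk1 (chr10:69352863-69353062, minus strand): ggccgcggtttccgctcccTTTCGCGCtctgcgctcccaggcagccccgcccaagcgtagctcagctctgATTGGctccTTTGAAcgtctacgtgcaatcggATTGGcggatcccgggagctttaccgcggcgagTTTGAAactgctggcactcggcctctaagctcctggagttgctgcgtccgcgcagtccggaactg
Plk1 (chr7:122159285-122159484, plus strand): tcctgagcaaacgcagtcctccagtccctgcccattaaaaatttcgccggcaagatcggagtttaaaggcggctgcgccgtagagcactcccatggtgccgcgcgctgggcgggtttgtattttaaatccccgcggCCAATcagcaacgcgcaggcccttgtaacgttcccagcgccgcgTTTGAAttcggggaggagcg
Ccnb1 (chr13:100786437-100786636, minus strand): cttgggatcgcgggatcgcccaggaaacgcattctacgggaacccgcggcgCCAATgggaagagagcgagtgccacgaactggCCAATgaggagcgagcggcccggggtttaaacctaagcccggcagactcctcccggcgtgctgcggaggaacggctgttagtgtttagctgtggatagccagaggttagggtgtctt

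Libraries held 12.9 to 48.0 M reads (M, mega), estimated from steps between low FPKM values. Every one of the 45 genes had a level above that of at least 41.2% of all genes. Foxo1 was 5.77 to 10.5 FPKM in the 6 WT libraries and 0.58 to 1.75 FPKM in the 6 KO libraries, so the KO libraries were low, as labelled. All 9 CD8 T cell markers were in the table (summed level 9381 to 13817 FPKM over the 12 libraries); of other cells, 2 of 3 CD4 T cell markers were listed (summed level at most 1.79 FPKM), 3 of 8 myeloid markers (14.83 to 27.04 FPKM, almost all Cd68) and 3 of 8 B cell markers, with Cd79a and Ms4a1 not listed. B cell marker levels differed with genotype: their sum was 11.4 to 19.5 FPKM in the WT libraries and 4.31 to 6.88 FPKM in the KO libraries. Whether those cells had a part in the results was not tested.

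Both classes were abundant mRNA. The median member had 23.2 FPKM among replication genes and 40.1 FPKM among mitotic genes (means over 12 libraries), beside 5.05 FPKM for the median of all genes. FPKM scales fragments by exon length and by library size. The length counts every annotated exon of a gene, whether or not the mRNA holds it, so levels of different genes compare only roughly. Summed, the 45 members made up 0.479 to 0.706% of a library's total FPKM.

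Among replication genes the order of levels ran over a wide range. Pcna, the sliding clamp, was highest at 199.6 FPKM (mean of 12), followed by Rrm2, the regulated subunit of ribonucleotide reductase, at 166 FPKM. Its partner Rrm1 had 34.8 FPKM. Rrm1 was scaled by 11012 bases of exon and Rrm2 by 2771. Their estimated reads were closer, 4788 to 18685 for Rrm1 and 6113 to 22520 for Rrm2 over the libraries. The 6 subunits of the MCM2-7 helicase, which assemble in equal numbers, ranged from 41.4 FPKM for Mcm2 to 101 FPKM for Mcm3, with Mcm5 at 81.5 FPKM. Mcm2 was scaled by 6956 bases of exon and Mcm3 by 3752. The loading factors were lower: Cdt1 had 30.7 FPKM and Cdc6 had 13.7 FPKM. Of the factors that turn the loaded helicase on, Cdc45 had 22.8, Gins2 9.56 and Mcm10 8.93 FPKM. The catalytic polymerase subunits Pole and Pola1 were near the bottom, at 10.3 and 7.56 FPKM, as was the cyclin E gene Ccne2 at 6.69 FPKM. The activating E2F genes E2f1 and E2f2 had 18.9 and 11.5 FPKM, and the repressor E2f8 had 17.6 FPKM against 3.32 FPKM for its relative E2f7, the lowest of the replication genes.

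Among mitotic genes Top2a, the topoisomerase that untangles sister chromatids, was highest at 104 FPKM, with cyclin B2 (Ccnb2) beside it at 100.1 FPKM. The proliferation marker Mki67 had 79.9 FPKM, cyclin A2 (Ccna2) 68.1 FPKM, and cyclin B1 (Ccnb1) 31.4 FPKM. Their kinase Cdk1 had 42.2 FPKM. Its activating phosphatase Cdc25c was the lowest at 3.98 FPKM. Plk1 and Aurkb, kinases of the spindle and of the chromosomal passenger complex, had 54.4 and 40.1 FPKM, and survivin (Birc5), which sits in that complex, had 50.1 FPKM. Ube2c, the ubiquitin-conjugating enzyme of the anaphase-promoting complex, and Cdc20, its activator, had 75 and 58.9 FPKM, the checkpoint kinase gene Bub1 16.2 FPKM, the spindle motor Kif11 26.8 FPKM, the cytokinesis motor Kif20a 30.1 FPKM, and the kinetochore gene Cenpf 6.72 FPKM. Neighbours in this order often overlapped between libraries, as Ccnb2 (86.6 to 111 FPKM) and Top2a (85 to 159 FPKM) did.

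**Figure D1:**
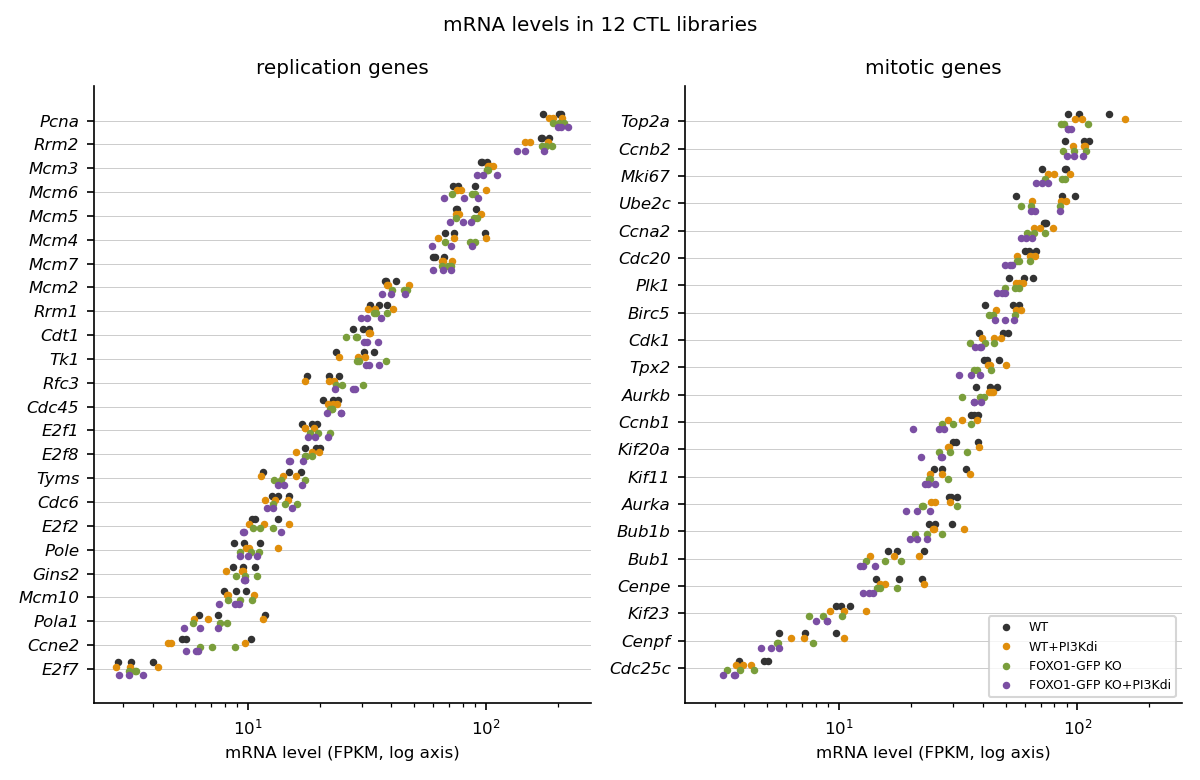
mRNA level (FPKM, log axis) of the 24 replication genes (left) and 21 mitotic genes (right), ordered by mean, with a point for each of the 12 libraries coloured by group. Levels differ far more between genes (from 3.32 FPKM for E2f7 to 199.6 FPKM for Pcna) than between libraries of a gene.

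Across the 12 libraries each gene stayed within a narrow range. The highest library had 1.19 (Cdc45) to 2.24 times (Ccne2) the FPKM of the lowest, and the ratio passed 2 for 3 genes only, Ccne2, Cenpf and Pola1. The standard deviation (SD) between libraries of a group had a median of 0.16 (log2) for replication genes, 0.18 for mitotic genes and 0.24 for all genes. Mcm3 had the smallest SD, 0.0767, and Ccne2 the largest, 0.42; among mitotic genes these were Cdc20, 0.0907, and Cenpf, 0.31.

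The 3 genes of widest range, Ccne2, Cenpf and Pola1, were highest in the WT libraries of replicate 1. Pola1, the catalytic subunit of polymerase alpha, measured 11.83, 7.51 and 6.26 FPKM over WT replicates 1 to 3, while WT+PI3Kdi gave 11.55, 6.81 and 5.95 FPKM. Ccne2 had 10.34, 5.27 and 5.52 FPKM and 9.76, 4.75 and 4.62 FPKM in the same libraries. Both were high in replicate 1 with and without inhibitor. Ube2c went the other way, with 54.97, 86.16 and 97.81 FPKM in WT and 64.60, 89.86 and 85.71 FPKM in WT+PI3Kdi. Exon length moved with this pattern: the 23 members of at least 4354 bases stood 0.24 (log2, difference of median deviations) above the 22 shorter members in WT replicate 1 and 0.20 above them in WT+PI3Kdi replicate 1, against -0.18 to 0.0592 in the other 10 libraries. All genes of at least 1 FPKM showed it too, with a slope of 0.15 and 0.13 (log2 per 2-fold step in exon length) in these libraries. The part of length in the results was not tested beyond the values given with the length and GC trends removed. The 2 classes were alike in length, with medians of 4546 and 4338 bases.

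**Figure D2:**
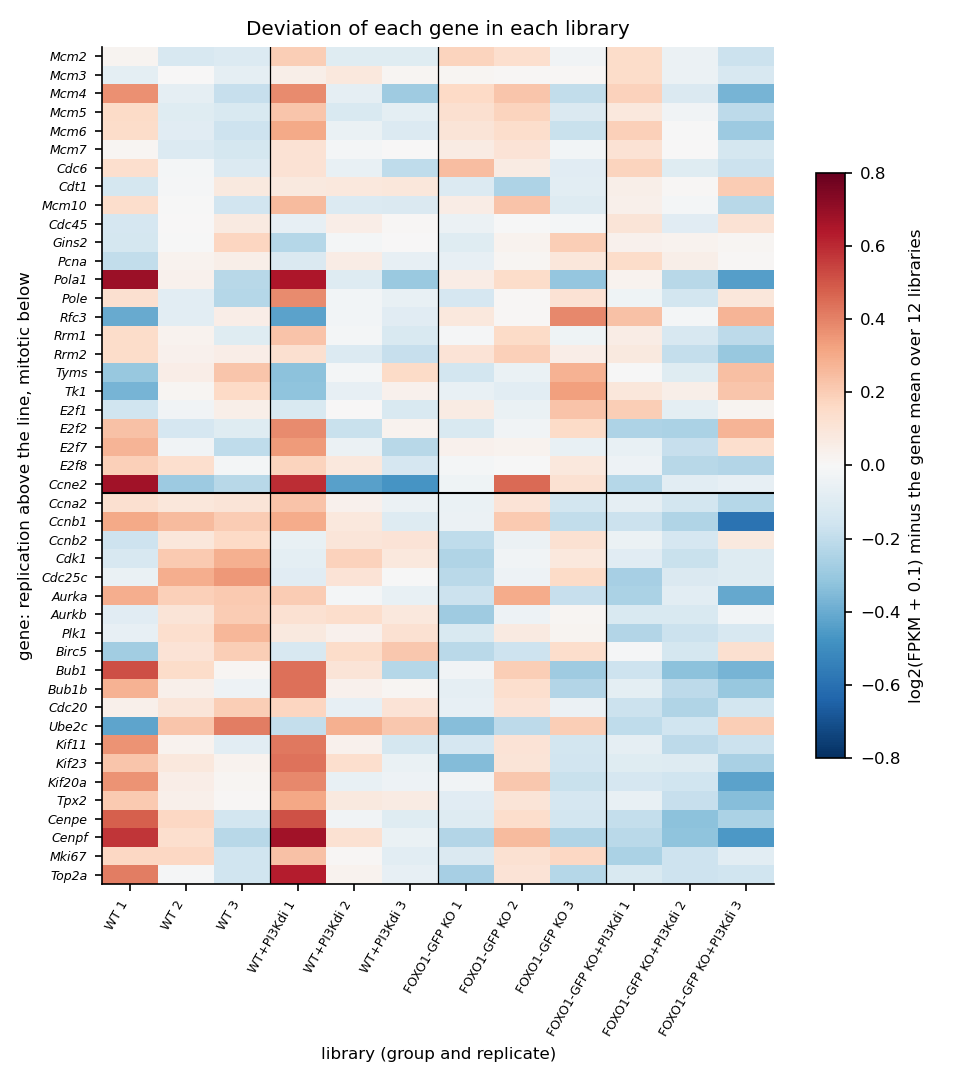
Deviation of log2(FPKM + 0.1) from the mean of the gene over 12 libraries (colour, red high and blue low) for replication genes above the line and mitotic genes below it, in columns by group and replicate. WT and WT+PI3Kdi replicate 1 stand out in Pola1, Ccne2, Cenpf and Top2a, and the mitotic block is mostly blue in the 3 FOXO1-GFP KO+PI3Kdi libraries.

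In WT CTL, 24 h of p110δ inhibition gave small differences in replication and mitotic mRNA. Of the 45 genes, 0 were called by limma (adjusted p under 0.05 over all genes and over 1.5-fold), beside 0.0979% of all genes tested. An unadjusted p under 0.05 was reached by 0 members, beside 5.14% of all genes, and voom called 0. The smallest adjusted p of a member was 0.9997. With the vehicle and inhibitor libraries of a replicate number kept together as a block, 0 members were called beside 2.57% of all genes, and 0 members had an adjusted p under 0.05 at any fold beside 7.41% of all genes. The median log2 fold change was 0.0017 for replication genes and -0.0055 for mitotic genes, beside -0.038 for all genes, and the members lay between -0.19 and 0.16.

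Pcna had 173.82, 202.89 and 205.75 FPKM in WT and 183.61, 207.17 and 190.71 FPKM in WT+PI3Kdi. Mcm5 had 90.41, 75.75 and 74.48 FPKM and 94.83, 74.41 and 77.03 FPKM. Mki67 had 89.03, 89.34 and 71.16 FPKM and 93.50, 79.92 and 74.89 FPKM. For all 3 genes the groups overlapped. The extremes were small: among replication genes Pole, of the leading-strand polymerase, had the highest log2 fold change (0.16 ± 0.14 SE) and Ccne2 the lowest (-0.16 ± 0.30 SE), and among mitotic genes these were Top2a (0.12 ± 0.19 SE) and Cdc25c (-0.19 ± 0.14 SE). None of these 4 passed the test. Without WT replicate 1 Ccne2 was at 0.15, and without WT+PI3Kdi replicate 1 Top2a was at -0.10. The 95% interval lay inside a 1.5-fold change either way for 42 of 45 members, and for all 45 with the block, against 53.9% and 81.1% of all genes. For genes of at least 1 FPKM these shares were 63.7% and 89.5%. With the block the members' intervals reached from -0.43 to 0.33. By pairs, 11 members were lower with inhibitor in 3 of 3 pairs (beside 29.5% of all genes) and 9 were higher in 3 of 3 (16.7%); the helicase genes Mcm2, Mcm3, Mcm6 and Mcm7 were among the latter and Cdc6, Rrm2, Ccnb1 and Bub1 among the former.

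In FOXO1-GFP KO CTL the inhibitor again moved no member past 1.5-fold, and the members passed the paired test about as often as all genes did. Without the block limma called 0 of 45 members, beside 0.0452% of all genes. An unadjusted p under 0.05 was reached by 2 members (Cdt1 and Ccnb1), beside 5.17% of all genes. Voom called 0, and the smallest adjusted p was 0.858. With the block 0 were called beside 2.79% of all genes, and 5 members had an adjusted p under 0.05 at a smaller fold, beside 10.1% of all genes, so the count is not a result about the members as a class. Of the 5, Cdt1 rose, and Rrm2, Ccnb1, Kif20a and Mki67 fell.

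Cdt1, which loads the helicase, had 28.38, 25.80 and 28.77 FPKM in FOXO1-GFP KO and 31.55, 30.77 and 35.26 FPKM with PI3Kdi. It was higher in 3 of 3 pairs and the groups did not overlap (log2 fold change 0.23, SE 0.0496 and adjusted p = 0.0155 with the block; adjusted p = 0.858 without it). Ccnb1 had 29.93, 35.76 and 26.95 FPKM and 27.45, 26.15 and 20.48 FPKM. The inhibitor libraries were lower in 3 of 3 pairs, and the groups overlapped (log2 fold change -0.32, SE 0.0769, adjusted p = 0.0239 with the block and 0.933 without).

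Rrm2 had 178.38, 189.11 and 171.50 FPKM and, with PI3Kdi, 174.72, 144.99 and 134.35 FPKM. Kif20a had 29.09, 34.51 and 26.27 FPKM and 27.04, 26.64 and 22.01 FPKM. Mki67 had 73.29, 86.39 and 89.07 FPKM and 66.80, 70.98 and 74.91 FPKM. Each was lower in 3 of 3 pairs, with overlapping groups for all 3 genes. Their log2 fold changes were -0.25 (Rrm2), -0.24 (Kif20a) and -0.22 (Mki67), with adjusted p of 0.0423, 0.0466 and 0.043 with the block and of 0.933 for each without it. The 5 calls rest on pairs 2 and 3: with the block, 0 members passed without either library of KO pair 2 or of KO pair 3, and 8 passed without either library of pair 1. Leaving out WT libraries, which enter only through the shared estimate of the spread, left 3 to 5; the count was 3 without WT replicate 1, WT replicate 2 or WT+PI3Kdi replicate 2. Of 9 CD8 T cell markers, Cd8a, Cd8b1, Cd3d, Cd3e and Cd3g were higher and Prf1 lower in this contrast. These passed with the block (limma adjusted p under 0.05), beside 10.1% of all genes, and had an adjusted p of 0.924 to 0.933 without it. In WT CTL Cd8a was also higher and Prf1 lower with the block (adjusted p = 0.0239 and 0.0284). The part of these markers in the result was not tested.

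Class medians in KO CTL were below 0. The median log2 fold change was -0.058 for replication genes and -0.14 for mitotic genes, beside -0.02 for all genes. By pair, the mitotic median was -0.00493, -0.28 and -0.10 and the replication median 0.0577, -0.16 and -0.12 in pairs 1 to 3. The classes had opposite signs in pair 1, and both medians were lowest in pair 2. In 3 of 3 pairs 19 members were lower (8 replication and 11 mitotic, beside 26.4% of all genes) and 1, Cdt1, was higher (beside 23.1%). The lowest replication gene was Ccne2 (-0.31 ± 0.30 SE, adjusted p = 0.127 with the block), and the highest mitotic gene was Birc5 (0.074 ± 0.15 SE); neither passed. With the block the 95% intervals of all 45 lay inside 1.5-fold either way, and without it 38 did.

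Between genotypes the class medians lay apart. Without inhibitor, 0 members were called (beside 0.331% of all genes, and 0.233% with the block), and 0 had an unadjusted p under 0.05 (beside 6.51%). Voom called 0, and the smallest adjusted p was 0.866. The median log2 fold change of FOXO1-GFP KO over WT was 0.0562 for replication genes and -0.17 for mitotic genes, beside -0.012 for all genes. All 21 mitotic genes had a value below 0 (from -0.26 for Bub1 to -0.0017 for Mki67), as did 6 of 24 replication genes, beside 52.7% of all genes. Members of a class move together across libraries, so these are not 21 separate observations. No mitotic gene lay below the WT range in all 3 KO libraries (beside 6.79% of all genes), and Mcm3 alone of the replication genes lay above it (3.54%). The B cell marker Ighm was called in this contrast too (-1.60 on the log2 scale, adjusted p = 0.0153), and its part in the result was not tested.

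FOXO1-GFP KO replicate 2 was high for many mitotic genes. Bub1 had 22.69, 17.54 and 16.05 FPKM in WT and 15.52, 18.23 and 12.98 FPKM in KO (log2 fold change -0.26 ± 0.19 SE). Aurka, a spindle pole kinase gene, had 31.19, 29.02 and 29.38 FPKM and 22.56, 31.25 and 22.33 FPKM. In both, KO replicate 2 stood above the other KO libraries and above at least 2 of the 3 WT libraries. Rfc3, a subunit of the loader that opens PCNA, had the highest value, with 17.67, 21.99 and 24.20 FPKM in WT and 24.80, 23.51 and 30.46 FPKM in KO (0.30 ± 0.16 SE, adjusted p = 0.866). Pola1 had the lowest value of the replication genes (-0.20 ± 0.27 SE), and was at 0.0609 without WT replicate 1.

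With inhibitor 15 of 21 mitotic genes did not overlap between genotypes, and 0 members were called (beside 1.45% of all genes, and 1.18% with the block; voom called 0). The median log2 fold change of FOXO1-GFP KO+PI3Kdi over WT+PI3Kdi was -0.26 for mitotic genes and -0.05 for replication genes, beside 0.0061 for all genes; the replication median was 0.0391 without WT+PI3Kdi replicate 1. Again all 21 mitotic genes had a value below 0, from -0.58 (Cenpf) to -0.0837 (Ccnb2). In 15 of the 21 every KO+PI3Kdi library lay below every WT+PI3Kdi library, as it did in 0 of 24 replication genes and 7.90% of all genes. Here too members of a class move together across libraries, so these are not 15 separate observations. The 15 were Ccna2, Ccnb1, Cdk1, Cdc25c, Aurka, Aurkb, Plk1, Bub1b, Cdc20, Kif23, Kif20a, Tpx2, Cenpe, Cenpf and Top2a, and the others were Ccnb2, Birc5, Bub1, Ube2c, Kif11 and Mki67. In the other direction Gins2, Rfc3 and Tk1 did not overlap (6.85% of all genes), a count of 3 that became 0 with libraries centred on the median gene, 1 with trimmed-mean scaling, and 5 without WT+PI3Kdi replicate 2 or KO+PI3Kdi replicate 2. The count of 15 was 13 with median centring and with trimmed-mean scaling, and 15 with the length and GC trends removed. It was 15 to 18 with any single library left out. The 0 of 24 replication genes became 1 without WT+PI3Kdi replicate 3, 4 without KO+PI3Kdi replicate 1 and 2 without KO+PI3Kdi replicate 3. Leaving out a library can only keep or raise such counts, and the shares of all genes were not counted under these settings. An unadjusted p under 0.05 was reached by 8 mitotic genes, all lower, and by Rfc3 alone of the replication genes; the smallest adjusted p of a member was 0.223 (Tpx2).

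Cenpf, a kinetochore protein gene, had 10.45, 7.10 and 6.27 FPKM in WT+PI3Kdi and 5.59, 5.19 and 4.71 FPKM in KO+PI3Kdi. Its log2 fold change was -0.58 ± 0.23 SE (95% interval -1.09 to -0.072, adjusted p = 0.392), the largest in size of the 45, and -0.37 without WT+PI3Kdi replicate 1. Ccnb1 had 38.02, 32.85 and 28.75 FPKM and 27.45, 26.15 and 20.48 FPKM. All 3 KO libraries were below all 3 WT libraries (-0.43 ± 0.14 SE, adjusted p = 0.252).

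Tpx2, a spindle assembly factor that activates Aurora A, had 50.31, 42.82 and 42.32 FPKM and 38.86, 35.69 and 31.94 FPKM. The groups did not overlap (-0.35 ± 0.11 SE). Cdc20 had 66.16, 55.98 and 63.37 FPKM and 52.00, 49.66 and 53.02 FPKM, and Plk1 had 57.09, 55.44 and 58.90 FPKM and 45.93, 48.07 and 49.57 FPKM. In both the KO libraries were tightly grouped below the WT range, with log2 fold changes of -0.26 ± 0.092 SE for Cdc20 and -0.26 ± 0.10 SE for Plk1. Cdk1 had 39.79, 47.69 and 44.50 FPKM and 39.36, 37.10 and 39.07 FPKM, so its groups were apart by less than 1 FPKM.

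Replication genes gave no such pattern. Cdc6 had 14.75, 13.01 and 11.81 FPKM in WT+PI3Kdi and 15.39, 12.72 and 12.07 FPKM in KO+PI3Kdi. E2f1 had 17.38, 18.94 and 17.35 FPKM and 21.64, 17.86 and 19.20 FPKM. The groups overlapped for both. Rfc3 was highest, with 17.30, 22.98 and 21.94 FPKM and 27.54, 23.13 and 28.27 FPKM (0.35 ± 0.16 SE, adjusted p = 0.478), and Pola1 was lowest (-0.29 ± 0.27 SE). The 95% interval lay inside 1.5-fold either way for 21 of 24 replication genes and 9 of 21 mitotic genes, so a 1.5-fold decrease could not be set aside for most of the latter. In this contrast 2 of the 3 B cell markers in the table were also called. Ighm was at -2.38 (log2, limma adjusted p = 0.000831). Igkc (adjusted p = 0.00249) had a value of 0 in all 3 KO+PI3Kdi libraries against 1.38 to 2.84 FPKM in WT+PI3Kdi. Cd79b was not called, and its groups overlapped (2.86 to 4.49 FPKM in WT+PI3Kdi, 2.67 to 3.21 FPKM in KO+PI3Kdi). The part of these markers in the result was not tested.

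**Figure D3:**
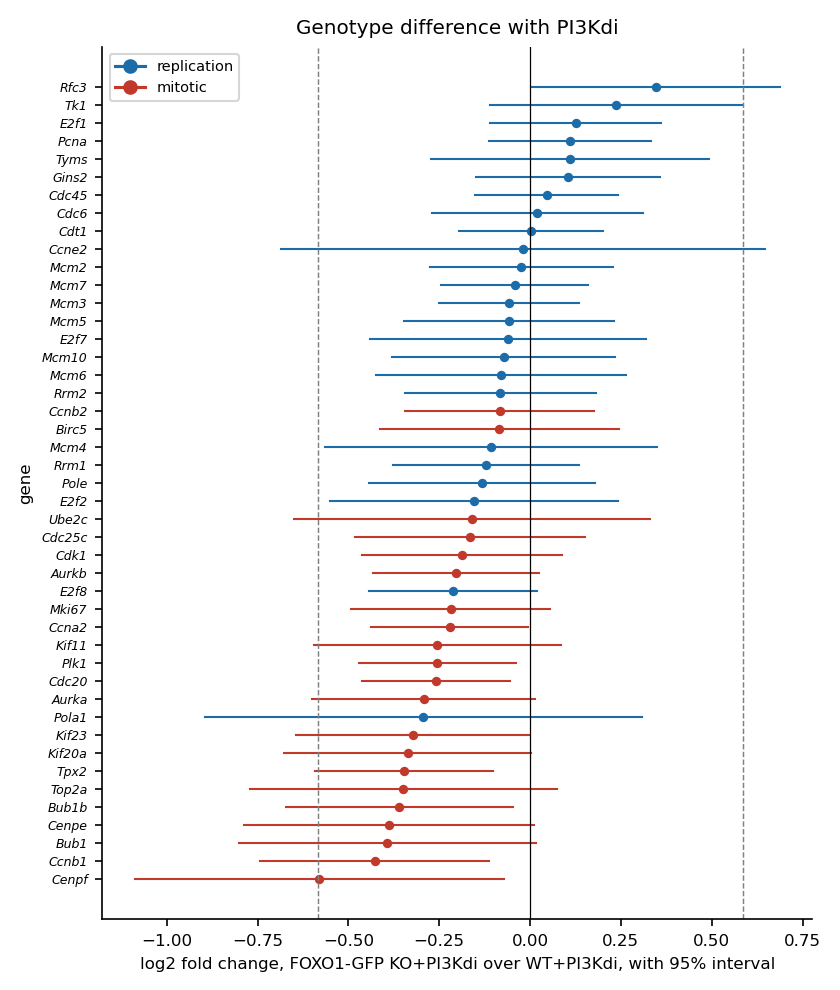
Log2 fold change of FOXO1-GFP KO+PI3Kdi over WT+PI3Kdi for each gene (points) with its 95% interval (lines), blue for replication and red for mitotic genes; dashed lines mark 1.5-fold. All 21 mitotic points lie left of 0, from -0.58 to -0.0837, and replication points lie on both sides.

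The response to the inhibitor was not shown to differ between genotypes for any member. The test of the difference called 0 of 45 genes (beside 0% of all genes, and 0.0226% with the block). Unadjusted, 0 members had a p under 0.05, beside 1.51% of all genes, and voom called 0. With the block the smallest adjusted p was 0.355. The median difference, KO response minus WT response, was -0.12 for replication genes and -0.13 for mitotic genes, beside 0.0213 for all genes. Cdt1, which rose in KO CTL with the block, had 0.22, 0.094 and 0.016 (log2, inhibitor minus vehicle) in the WT pairs and 0.15, 0.25 and 0.29 in the KO pairs, a difference of 0.12 (95% interval with the block -0.029 to 0.28). Ccnb1 had -0.0034, -0.16 and -0.31 in WT pairs and -0.12, -0.45 and -0.39 in KO pairs, so it was lower with inhibitor in all 6. The lowest difference was that of Cenpf (-0.35 ± 0.33 SE) among mitotic genes, where the highest was Cdc25c (0.0625 ± 0.20 SE).

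**Figure D4:**
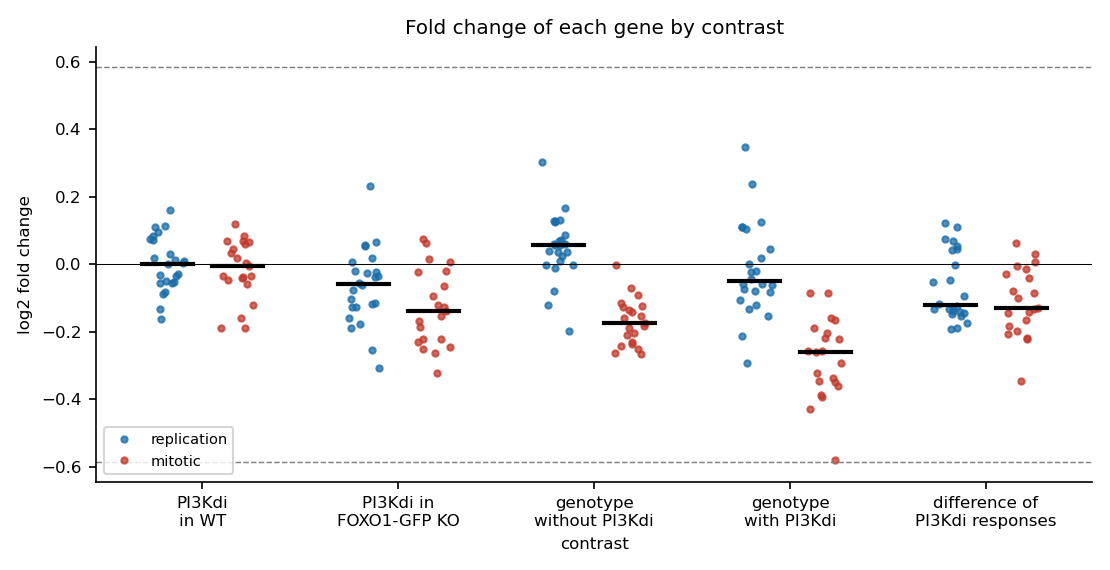
Log2 fold change of each replication gene (blue) and mitotic gene (red) in 5 contrasts, with black bars at class medians and dashed lines at 1.5-fold. The class medians lie apart in the genotype contrasts (0.0562 and -0.17 without inhibitor, -0.05 and -0.26 with it), and no gene passes 1.5-fold.

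The classes were also summed per library. The 21 mitotic genes summed to 966 ± 5.82 FPKM in WT, 968 ± 63.7 FPKM in WT+PI3Kdi, 872 ± 67.9 FPKM in FOXO1-GFP KO and 814 ± 16.1 FPKM in FOXO1-GFP KO+PI3Kdi (mean ± SD, n = 3). The 24 replication genes summed to 1069.9 ± 26.7, 1074 ± 72.8, 1113 ± 28.7 and 1064 ± 89.6 FPKM in the same order. The mitotic sum of every KO library was below that of every WT library with the same treatment, while replication sums overlapped.

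The median deviation from the gene means, which weighs each gene alike, was 0.21, 0.11 and 0.10 (log2) for mitotic genes over WT replicates 1 to 3, and with PI3Kdi it was 0.23, 0.079 and -0.04. KO libraries gave -0.13, 0.11 and -0.15 without inhibitor, and -0.14, -0.16 and -0.17 when treated. KO replicate 2 was within the WT range without inhibitor, and with inhibitor all 3 KO libraries lay below the 3 WT libraries. For replication genes the values were 0.13, -0.014 and -0.095 for WT, 0.15, -0.035 and -0.094 for WT+PI3Kdi, 0.0241, 0.0292 and -0.00132 in KO and 0.0806, -0.083 and -0.0965 in KO+PI3Kdi. The difference of the classes, replication minus mitotic, was -0.132 ± 0.0609 for WT, -0.0828 ± 0.0302 in WT+PI3Kdi, 0.0747 ± 0.133 in KO and 0.124 ± 0.0793 in KO+PI3Kdi (mean ± SD, n = 3). It was below 0 in all 6 WT libraries and above 0 in 5 of 6 KO libraries, KO replicate 2 being the exception at -0.0783. With the length and GC trends removed the difference of class medians between genotypes was 0.22 without and 0.25 with inhibitor, beside 0.23 and 0.21 as deposited. No p is given for these class values.

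**Figure D5:**
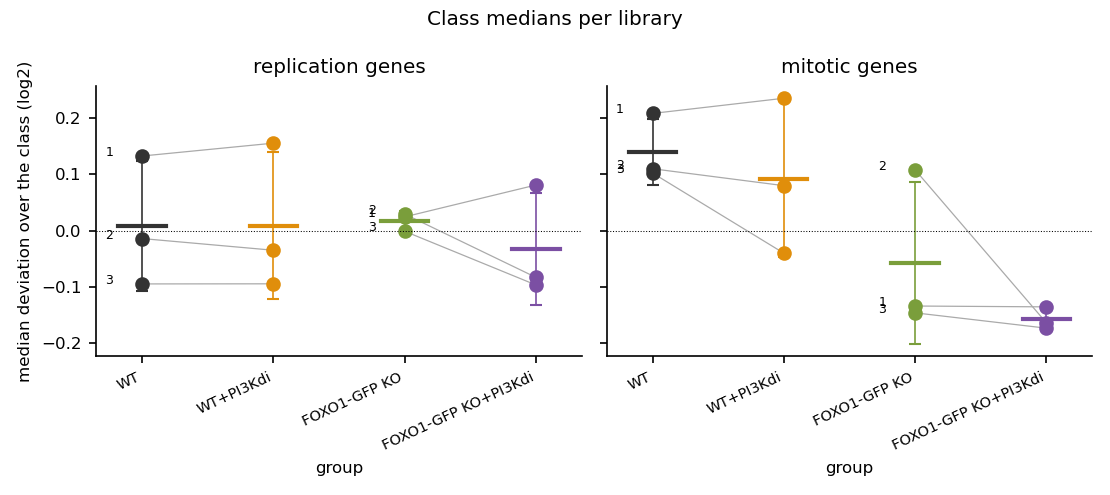
Median deviation (log2) over the replication genes (left) and mitotic genes (right) in each library, by group; points are libraries numbered by replicate, bars are group means ± SD, and grey lines join libraries of the same number within a genotype. Mitotic medians are -0.17 to -0.14 in FOXO1-GFP KO+PI3Kdi and -0.0401 to 0.23 in WT+PI3Kdi, and replication medians overlap between groups.

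Further genes of both processes were read from lists. Of 52 other replication genes and 58 other mitosis genes, all in the table, 0 were called for the inhibitor in WT (0.0979% of all genes) or KO CTL (0.0452%), or for genotype without it (0.331%). With inhibitor, 1 mitosis gene was called between genotypes, beside 1.45% of all genes: Cdc25b, a phosphatase that activates CDK1, had 35.55, 29.07 and 31.75 FPKM in WT+PI3Kdi and 20.56, 19.91 and 21.69 FPKM in KO+PI3Kdi. It was lower by 0.63 on the log2 scale (SE 0.10, adjusted p = 0.0113, and 0.0484 with the block), with no overlap. Cdc25b was lower without inhibitor too, though not called. It had 30.25, 28.23 and 29.34 FPKM in WT and 19.85, 24.34 and 20.58 FPKM in KO, again with no overlap. Between genotypes with inhibitor Ccne1, the other cyclin E gene, had a log2 fold change of 0.51 (adjusted p = 0.0238), under 1.5-fold. The list medians in that contrast were 0.047 for other replication genes and -0.19 for other mitosis genes; without inhibitor they were 0.077 and -0.12. A value below 0 was found for 49 of 58 and 51 of 58 other mitosis genes with and without inhibitor, and for 21 and 8 of 52 other replication genes, beside 49% and 52.7% of all genes. The lists were read in the same libraries and chosen with earlier results of these data known. Their counts are therefore not separate support for the values of the members. In KO CTL with the block, Orc2, Cdk2, Melk and Nek2 had an adjusted p under 0.05 for the inhibitor, all lower and under 1.5-fold; these are 2 of 52 replication and 2 of 58 mitosis genes, beside 10.1% of all genes, so the lists did not exceed the background.

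Of 18 genes that brake the cycle, 17 were in the table, and 0 were called without the block in any contrast. With the block 1 of the 17 was called for the inhibitor in WT CTL, beside 2.57% of all genes. This was Cdkn1b, the p27 inhibitor of cyclin-dependent kinases. It had 6.45, 5.82 and 6.78 FPKM in WT and 10.46, 7.69 and 11.02 FPKM in WT+PI3Kdi, with no overlap (log2 fold change 0.59, adjusted p = 0.00937 with the block and 0.953 without). In KO CTL it had 5.16, 7.07 and 10.55 FPKM and, with PI3Kdi, 7.42, 11.52 and 13.38 FPKM (0.52, adjusted p = 0.018 with the block), under 1.5-fold. Cdkn1a, which encodes p21, had a log2 fold change of -0.29 in WT CTL (adjusted p = 0.00395 with the block). Ccng1 passed with the block in both genotypes and E2f4 in KO CTL, all lower and under 1.5-fold. Of all genes, 7.41% in WT CTL and 10.1% in KO CTL passed with the block at any fold. Whether the levels of these genes bear on replication and mitotic mRNA was not tested.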

How the data were processed

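RNA from CTL of 4 groups with 3 libraries each was sequenced as paired reads from a stranded mRNA kit, on 1 lane. Per the labels and the study's methods, the authors aligned reads with STAR 2.7.1a to GRCm38.p6, counted them per gene, filtered low genes and scaled libraries with edgeR, and deposited FPKM rounded to 2 decimals for 13283 genes. Rounded FPKM of genes up to 400 bases long fall on whole reads, which gave depths of 12.9 to 48.0 M reads; 98.5 to 99.3% of held-out values came out whole. The recovered scale was 1.002 to 1.03 times the summed reads in every library. Trimmed-mean factors computed here ran from 0.980 (KO+PI3Kdi replicate 3) to 1.016 (KO replicate 2), where the recovered scale was 1.003 and 1.002. The deposited FPKM thus showed no sign of such factors, and whether they were applied is not known. Trimmed-mean scaling was therefore also tried.

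Exon lengths and positions are from GENCODE M21 (GRCm38). Log2(FPKM + 0.1) of all genes was fitted with limma 3.58.1 (R 4.3.3): 4 group means, empirical Bayes with a mean-variance trend, and Benjamini-Hochberg adjustment over all genes. A gene was called at an adjusted p under 0.05 and over 1.5-fold; folds on this scale understate changes of low genes, and genes the authors filtered out could not be tested. Replicate numbers were checked for pairing: within a genotype, same-numbered libraries deviated from their group means together (correlation 0.59 to 0.84 in all 6 pairs), but not in all across genotypes (-0.41 to 0.73), so the block joined vehicle and inhibitor libraries within a genotype (consensus correlation 0.757). Whether paired cultures came from the same mouse is not given in the sources used here, and p-values measure the spread between these libraries. Named genes were members called with or without the block, the highest and lowest of each class per contrast, by mean level and by SD, a set of members given for each role, and called genes of the other lists. Members that passed at a smaller fold, the 15 that did not overlap, Tpx2, Aurka, Rrm1, Gins2, Ube2c and Mcm2 pairs, and list genes that passed but were not called (such as Ccne1, Cdkn1a, Orc2 and Cdk2) fall outside that rule in part and were chosen after their values were seen. The members and gene lists were chosen with earlier results of these data known. The fit was tested on simulated data. Alternatives were other pseudocounts (1 and 0.01 FPKM), a filter at 1 FPKM, other blocks, median centring, voom on estimated reads, no trend, and leaving out each library; trimmed-mean scaling, removal of length and GC trends and leaving out both WT libraries of replicate 1 were added after seeing the data.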

Additional observations from a re-analysis of the deposited data

Results flagged for a closer look

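Mcm2, a helicase subunit, moved in opposite directions in the pairs of the 2 genotypes: the inhibitor libraries were higher in 3 of 3 WT pairs (log2 0.172, 0.0302 and 0.0124) and lower in 3 of 3 KO pairs (-0.0293, -0.19 and -0.14). The difference of responses was -0.19 ± 0.16 SE and did not pass the test (limma, adjusted p = 0.395 with the block). Of the 45 members, 1 met this description. Of all genes, 16.7% were higher in 3 of 3 WT pairs and 26.4% were lower in 3 of 3 KO pairs. The share of all genes that met both was not counted, so the 1 is not a result about the members. Mcm2 had 41.95, 37.76 and 38.15 FPKM in WT, 47.26, 38.56 and 38.48 FPKM in WT+PI3Kdi, 46.60, 45.36 and 40.43 FPKM in FOXO1-GFP KO and 45.66, 39.85 and 36.67 FPKM in FOXO1-GFP KO+PI3Kdi, and the 4 groups overlapped.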

How the results depend on the processing

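The count of members called stayed at 0 in all 5 contrasts under every setting tried. The count of members with an adjusted p under 0.05 at any fold, for PI3Kdi in FOXO1-GFP KO, was 5 with the replicate block within genotype, 6 with the block as fixed terms, 4 with voom and the block and 7 with length and GC trends removed and the block, and 0 to 8 when a library was left out; for genotype with PI3Kdi it was 2 with a block on the number shared by all groups. The blocks changed no other count of members. All genes called moved more, from 13, 6, 44 and 193 to 342, 370, 31 and 157 with the block in the order of the report, and from 0 to 3 for the difference of responses.

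The replication minus mitotic difference of medians kept its sign for both genotype contrasts, at 0.18 to 0.25 without and 0.19 to 0.28 with inhibitor over all settings. For replication against mitotic members: PI3Kdi in WT, it was -0.0302 to 0.0971 when a library was left out, and -0.0185 without WT+PI3Kdi replicate 2. The median difference of responses was -0.18 to -0.0147 for replication and -0.19 to -0.0167 for mitotic genes with a library left out (difference of PI3Kdi responses: median of mitotic members -0.0223 without KO replicate 2). The 3 replication genes above the WT+PI3Kdi range became 0 with libraries centred on the median gene and 1 with trimmed-mean scaling; the cause was not tested. They were 3 to 5 with a library left out, which can only keep or raise the count.

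Signs near 0 turned for some genes, none of them called. Leaving out libraries put Ccne2 for PI3Kdi in WT at -0.51 to 0.15, Top2a for PI3Kdi in WT at -0.0967 to 0.28, Pola1 for genotype without PI3Kdi at -0.39 to 0.0609, Mki67 there at -0.11 to 0.0846 and Cdc25c for the difference of responses at -0.028 to 0.19. With the block, Mki67 turned at 0.0708 without WT replicate 2 and 0.0516 without KO replicate 1, and the value of Cdc25c, difference of PI3Kdi responses, at -0.0163 without WT replicate 3 and -0.00011 without WT+PI3Kdi replicate 3. The value of Mki67, genotype without PI3Kdi, at -0.00175 as reported, was 0.0264 with median centring, 0.000128 with voom and the block, 0.0234 with trimmed-mean scaling, 0.0616 with length and GC trends removed, with or without the block, and 0.0512 without both WT libraries of replicate 1, where Pola1 was 0.0609.

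With 3 libraries a group and a median SD of 0.17 (log2), members passed at folds under 1.5 for the inhibitor only with the block within genotype. Genotype contrasts compare unpaired libraries. Depth differs between libraries, and the fit to FPKM weighs them alike. Counting error enters it as part of the spread between libraries and through the trend of variance with level.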
